A study of Homo sapiens with 6 samples.

Results

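Expression of 10 genes of zinc handling was examined after knockdown of CD73 in PANC-1, an epithelial tumour line derived from a ductal adenocarcinoma of the human pancreas. They are the metallothioneins MT1E, MT1F, MT1G, MT1M, MT1X and MT2A, the metallothionein pseudogenes MT1L and MT1DP, the zinc-sensing transcription factor MTF1 and the zinc exporter SLC30A1. Their rows were found by Ensembl identifier among the 30735 genes of the RNA-seq values. Of the 10, 9 had a row, and MT1G was not analysed here. Total RNA came from 3 samples that received CD73 siRNA and 3 that received a negative control, all by Lipofectamine in serum-free medium after growth in medium with fetal bovine serum. The labels number the samples 1 to 3 in each group, and the siRNA sequence and the time of harvest were not given in the sources used here. The study describes the samples of a group as separate experiments, and the p-values given for other genes measure the spread between them. The 10 genes were chosen by name with earlier fold changes of this same contrast, CD73 siRNA against negative control, in view, and their values are therefore described, with no p-value for any of them. Counts of members past a threshold are given only beside the share of all genes past it.

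Metallothioneins are small cysteine-rich proteins that bind zinc and copper in the cytosol and buffer their free concentration. When zinc enters the cell, the zinc finger protein MTF1 binds metal response elements upstream of the metallothionein genes and of SLC30A1, and raises their transcription. SLC30A1 then moves zinc out across the plasma membrane. Glucocorticoids and oxidative stress also induce metallothioneins. The human MT1 genes and MT2A arose by duplication, lie side by side and are much alike, so reads from one copy can resemble another.

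The deposited values name no unit and were treated as RPKM, read counts scaled for exon length and for library size, because, multiplied by exon length, most were whole multiples of a step per sample. Levels of different genes are compared on this per-length scale. The library totals implied by the values were 15009120 to 16836207 reads. NT5E, the gene of CD73 and the target of the siRNA, fell in the CD73 siRNA group. It was present at 3.36, 6.85 and 8.22 RPKM in CD73 siRNA replicates 1, 2 and 3 and at 13.96, 13.9 and 17.1 RPKM in the negative control. The groups did not overlap (log2 fold change -1.23, SE 0.26, limma p = 0.00144, adjusted p = 0.303, exact permutation p = 0.1, the smallest that 3 samples against 3 allow). Of the markers listed for PANC-1, the mesenchymal gene VIM was at 183 to 263 RPKM. Among the epithelial ones, KRT8 at 30.01 to 158 RPKM and KRT18 at 36.3 to 87.0 RPKM, whereas KRT19 and EPCAM were under 6 RPKM and KRT7 was at or near 0. Markers of leukocytes, macrophages, endothelium and islet cells (PTPRC, CD68, PECAM1 and INS) and COL1A2 were at most 0.0765 RPKM, and COL1A1 was at 8.97 to 19.1 RPKM. CD3E and PRSS1 were not analysed here. KRT8 and KRT18 were lower with CD73 siRNA (limma p = 0.00261 and p = 0.00448, exact permutation p = 0.1 for each), and their part in any result below was not tested.

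In GENCODE release 29 (GRCh38), the metallothionein members lie on the forward strand of chromosome 16 in a span of 75998 bp, from 56608199 to 56684196, which holds 14 annotated metallothionein genes and pseudogenes. MT2A comes first (56608199 to 56609497), followed by MT1L (56617476 to 56618818), MT1E (56625475 to 56627112), MT1M (56632233 to 56633986), MT1DP (56643705 to 56644786), MT1F (56657694 to 56660698) and MT1X (56682424 to 56684196). MT1A, a further protein-coding copy that had a row in the data, lies from 56638666 to 56640087. MT1L and MT1DP are annotated as transcribed unprocessed pseudogenes. MTF1 (37809567 to 37859620) and SLC30A1 (211571568 to 211578742) are protein-coding genes on the reverse strand of chromosome 1.

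The 3 most expressed copies are shown here because the comparison below depends on telling them apart. The coding stretches of MT1E and MT2A and the matching stretch of MT1L, each of 186 bases in the spliced transcripts of GENCODE release 29, are printed 5′ to 3′, with capitals marking each base that differs from MT1E.
MT1E: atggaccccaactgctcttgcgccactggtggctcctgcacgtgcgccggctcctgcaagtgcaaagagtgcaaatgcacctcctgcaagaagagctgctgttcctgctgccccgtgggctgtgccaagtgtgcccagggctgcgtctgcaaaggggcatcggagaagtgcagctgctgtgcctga
MT1L: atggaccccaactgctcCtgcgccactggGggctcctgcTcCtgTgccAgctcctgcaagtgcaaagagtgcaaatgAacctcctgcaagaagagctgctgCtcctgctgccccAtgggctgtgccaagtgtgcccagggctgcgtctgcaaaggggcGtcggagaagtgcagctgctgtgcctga
MT2A: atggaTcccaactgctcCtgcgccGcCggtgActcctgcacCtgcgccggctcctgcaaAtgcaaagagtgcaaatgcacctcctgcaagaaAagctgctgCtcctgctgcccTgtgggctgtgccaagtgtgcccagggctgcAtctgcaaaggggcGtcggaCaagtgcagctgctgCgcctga
MT1L differed from MT1E at 10 of the 186 bases (94.6% identity), and MT2A differed at 14 (92.5%). MT1E and MT2A each encode 61 codons before the stop, of which 20 are cysteine codons. In MT1L the first in-frame stop, TGA, was codon 26, after 25 codons with 7 cysteine codons. Between any pair of the 7 copies of this length that were compared, MT1G included, identity ranged from 88.7% (MT1F and MT1X) to 95.2% (MT2A and MT1G).

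The likeness of the copies bears on which gene a read was counted for. Among all 50-base stretches of the annotated transcripts, 4.42% of those of MT1L also occurred in another gene, which was MT1P3 alone. None was shared between MT1L and MT1E. The shared part was 3.02% for MT2A, 7.1% for MT1E, 9.87% for MT1M, 1.22% for MT1F and 0% for MT1DP. MT1X shared most, 18.3%, and its main partner was AC026461.1. At 100 bases, MT1X still shared 11.3% and the other measured copies 0%. The read length and the handling of reads with several matches were not given in the sources used here, so the values of single copies are uncertain. Their summed RPKM also depends on how reads were split, because a read weighs more in a shorter copy. Exon lengths were 411 bases for MT1L, 1052 for MT1E and 1299 for MT2A.

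Promoter sequence from RefSeq (GRCh38.p14) was at hand for 4 of the 10 genes, MT2A, MT1X, MTF1 and SLC30A1, and not for MT1E, MT1F, MT1G, MT1M, MT1L and MT1DP. The core of the metal response element was searched as TGCACNC and TGCGCNC on both strands of the 250 bases before the start that RefSeq gives. RefSeq starts differ from those of GENCODE release 29: the MT2A window lies within the gene span given above, the MT1X window runs past the GENCODE start, and the SLC30A1 window ends short of the GENCODE start of that gene. MT2A (chr16:56608334-56608583, forward strand) held 7 matches and MT1X (chr16:56682220-56682469, forward strand) held 4. Each match is printed in capitals with its flanks. Matches that begin with G lie on the reverse strand.
MT2A, 246 bases before the start: ccgcTGCACCCagcccc
MT2A, 168 bases before the start: cggcccGTGTGCAgagccg
MT2A, 153 bases before the start: gccgggTGCGCCCggccca
MT2A, 139 bases before the start: gcccagTGCGCGCggccgg
MT2A, 88 bases before the start: cggggcGTGTGCAggcagc
MT2A, 54 bases before the start: ggctttTGCACTCgtcccg
MT2A, 8 bases before the start: ccgcgcTGCACTCc
MT1X, 150 bases before the start: ccgcggTGCGCCCggcgct
MT1X, 122 bases before the start: ggttgcTGCACCCggccca
MT1X, 78 bases before the start: aggggcGGGTGCAaggacg
MT1X, 53 bases before the start: ggcctcTGCGCCCggccct
SLC30A1 (chr1:211579162-211579411, reverse strand) held 1 match and MTF1 (chr1:37859593-37859842, reverse strand) held 0. Of 35116 RefSeq promoter windows of this length, 24.8% held 1 or more matches, 0.37% held 4 or more and 0.0313% held 7 or more. A match is a run of letters and does not show binding. Of these 2 metallothioneins, MT2A was the most expressed member in these cells and MT1X among the least expressed.

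MT2A was the most abundant member, and 3 copies, MT2A, MT1L and MT1E, made up nearly all of the summed RPKM of the 7 listed metallothioneins. MT1A, which is not in that sum, was the next copy at 11.1 to 20.5 RPKM. After CD73 knockdown the copies did not move together. MT2A was lower than its control in each of the 3 replicate numbers, MT1L was higher in each, and MT1E, MT1M and MT1X went both ways. Levels also varied with the replicate number within each group, as the plot of levels by sample shows. In bulk RNA, fewer cells that express a gene and less RNA per cell cannot be told apart.

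**Figure D1:**
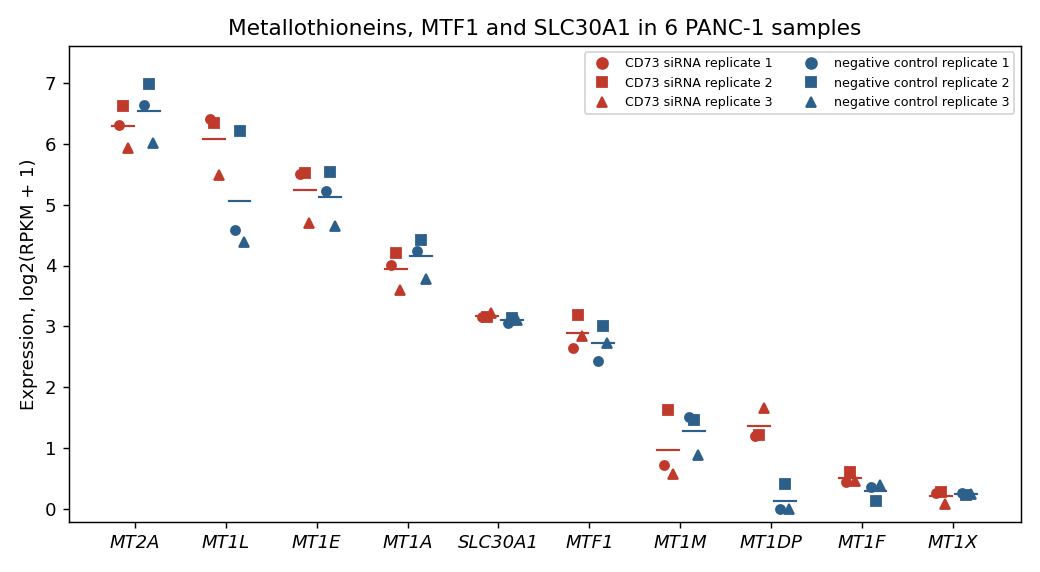
Expression on the log2(RPKM + 1) scale (y axis) of the 9 measured genes and of MT1A (x axis) in the 6 samples. Points are single samples, with shape giving the replicate number, and bars are group means. MT1L and MT1DP sit higher in CD73 siRNA (red) than in negative control (blue) for the same point shape, MT2A sits lower, and replicate 3 is the lowest of its group for MT2A, MT1L, MT1E and MT1A.

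MT2A, the main constitutive and inducible isoform in most tissues, was at 78.4, 97.3 and 59.99 RPKM in CD73 siRNA replicates 1, 2 and 3 and at 97.6, 125.5 and 63.6 RPKM in the negative control. The ranges overlapped, and within each replicate number the CD73 siRNA sample was the lower. Mean levels with CD73 siRNA and in the control were 78.6 ± 18.7 and 95.6 ± 31.0 RPKM (SD, n = 3 each), and the differences within replicate number were -0.31, -0.36 and -0.08 on the log2(RPKM + 1) scale. The mean log2 difference of -0.25 was -0.03 and -0.52 without negative control replicates 2 and 3, and -0.42 and -0.07 without CD73 siRNA replicates 2 and 3. Here and below, the sample of the same number in the other group was kept. Such means therefore also move with the level of the replicate number. Each value rested on 1240 to 2532 reads. The spread between replicates of either group was as large as the difference between the group means.

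MT1E, one of the human MT1 isoforms, was at 44.3, 44.7 and 25.1 RPKM with CD73 siRNA and at 36.2, 45.3 and 23.9 RPKM in the negative control. The samples of the same number lay close together, and the groups overlapped fully. The means were 38.0 ± 11.2 and 35.1 ± 10.7 RPKM (SD, n = 3 each), with log2 differences of 0.29, -0.02 and 0.06. The log2 differences went both ways, so MT1E had no steady direction. Their mean of 0.11 became -0.13 without negative control replicate 3, and -0.02 and -0.03 without CD73 siRNA replicates 1 and 2. The other sample of that number was kept each time.

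MT1L, the pseudogene whose frame is cut by the stop described above, had the next highest mean level per kb after MT2A. It was at 83.2, 79.5 and 43.8 RPKM in CD73 siRNA replicates 1, 2 and 3 and at 22.9, 72.7 and 19.9 RPKM in the negative control. Negative control replicate 2 lay among the CD73 siRNA samples, so the groups overlapped, and the other 2 control samples lay below all of them. The means were 68.8 ± 21.8 and 38.5 ± 29.6 RPKM (SD, n = 3 each), and the differences within replicate number were 1.82, 0.13 and 1.10. The mean log2 difference was 1.01 and rose to 1.59 without negative control replicate 2. It was 0.68 without negative control replicate 3. The values rested on 123 to 550 reads over 411 bases of exon. MT1E had more reads than MT1L in every sample, 378 to 749 over 1052 bases. The place of MT1L above MT1E therefore holds per kb and not in reads.

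MT1DP, the other pseudogene, was near the floor of detection. It was at 1.30, 1.33 and 2.18 RPKM with CD73 siRNA, which is 4, 4 and 7 reads over 191 bases of exon. In the negative control it was at 0, 0.337 and 0 RPKM, which is 1 read in all. The groups did not overlap. Relative to the library totals, the 15 reads against 1 gave a ratio of 14.4 (exact 95% interval 2.21 to 605, which covers counting error only and is no test, since the gene was listed with this contrast known). On the log2(RPKM + 1) scale the differences were 1.2, 0.80 and 1.67, with a mean of 1.22, and the mean was 3.34 with 0.1 added in place of 1. MT1DP passed the filter on low values only through the CD73 siRNA group.

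The remaining metallothioneins were weakly expressed. MT1M was at 0.660, 2.09 and 0.504 RPKM with CD73 siRNA and at 1.85, 1.78 and 0.849 RPKM in the negative control, from 8 to 31 reads. Its groups overlapped, and it was lower in replicates 1 and 3 (-0.78 and -0.30) and higher in replicate 2 (0.15). The mean of -0.31 lay between -0.63 and -0.11 when 1 sample was left out, the extremes being those without CD73 siRNA replicates 2 and 3. MT1F was at 0.362, 0.538 and 0.377 RPKM against 0.297, 0.102 and 0.317 RPKM, from 3 to 16 reads. MT1F groups did not overlap, but their nearest values, 0.317 and 0.362 RPKM, stood for 9 and 11 reads, a gap within counting error. MT1X was at 0.211, 0.215 and 0.067 RPKM against 0.211, 0.182 and 0.188 RPKM, from 2 to 6 reads, and no difference was detectable at this depth. MT1F and MT1X did not pass the filter of 1 RPKM in 3 samples.

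MTF1, the zinc sensor, was slightly higher with CD73 siRNA within each replicate number. It was at 5.29, 8.13 and 6.16 RPKM against 4.398, 7.01 and 5.66 RPKM, with log2 differences of 0.22, 0.19 and 0.11. Their mean of 0.17 was 0.29 and 0.02 without CD73 siRNA replicates 1 and 2, and 0.03 and 0.31 without negative control replicates 1 and 2. The other sample of each left-out number was kept, so these means also carry the level of that replicate number. The groups overlapped, and the means of 6.53 ± 1.46 and 5.69 ± 1.30 RPKM (SD, n = 3 each) differed by less than either SD. In both groups replicate 2 was the highest and replicate 1 the lowest.

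SLC30A1, the plasma membrane exporter and a target of MTF1, varied little between samples. It was at 7.92, 7.88 and 8.28 RPKM with CD73 siRNA and at 7.34, 7.80 and 7.66 RPKM in the negative control. The groups did not overlap, although CD73 siRNA replicate 2 and negative control replicate 2 were separated by 679 against 663 reads. The means were 8.03 ± 0.219 and 7.597 ± 0.238 RPKM (SD, n = 3 each), and the log2 differences were 0.10, 0.01 and 0.10.

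**Figure D2:**
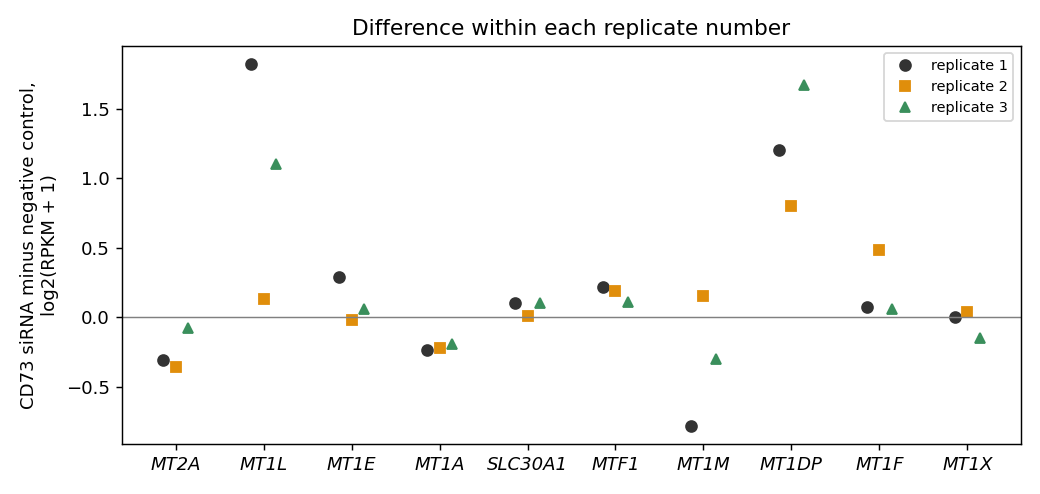
Difference between CD73 siRNA and negative control samples of the same replicate number, on the log2(RPKM + 1) scale (y axis), for the 9 measured genes and MT1A (x axis). Each point is 1 replicate number, and the line marks no difference. MT1L spans 0.13 to 1.82, MT1DP 0.80 to 1.67 and MT2A -0.36 to -0.08, while SLC30A1 stays within 0.01 to 0.10.

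Ordered by group mean in the negative control, the levels ran from MT2A through MT1L, MT1E, SLC30A1, MTF1, MT1M, MT1F and MT1X to MT1DP. In that group the ranges of MT2A and MT1L, of MT1L and MT1E, of MT1F and MT1X and of MT1X and MT1DP overlapped, and the other neighbours in the order were separated. With CD73 siRNA the order was the same down to MTF1, followed by MT1DP, MT1M, MT1F and MT1X. There the overlapping neighbours were MT2A and MT1L, MT1L and MT1E, SLC30A1 and MTF1, MT1DP and MT1M, and MT1M and MT1F.

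Counts of members are given beside the same counts over all genes tested and nothing is read from them, because this contrast served to list the genes. At an unadjusted limma p below 0.01, 1 of the 7 members tested was called, MT1DP, which was higher, while 3.13% of the 12527 genes tested were called (1.82% higher and 1.31% lower). MT1DP was tested only because the CD73 siRNA samples took it past the filter, so its call and direction are no support for a difference. With the replicate number as a block, 2 were called, MT1L and MT1DP, both higher, and 7.57% of all genes (4.27% higher and 3.3% lower). At a Benjamini-Hochberg adjusted limma p below 0.05, none of the members was called, and 0.00798% of all genes, 1 gene, was called. Of the 9 members measured, 3 had groups that did not overlap (MT1F, MT1DP and SLC30A1), as did 18.4% of the genes tested. All 3 were higher with CD73 siRNA and 0 lower, against 10.3% of the genes tested higher without overlap and 8.07% lower. In all 3 replicate numbers, 5 of the 9 were higher (MT1F, MT1L, MT1DP, MTF1 and SLC30A1), as were 27.0% of the genes tested, and 1, MT2A, was lower, as were 24.5%. The 9 include MT1F and MT1X, which missed the filter, whereas the shares are of genes that passed it. The median log2 fold change was 0.11 over the 7 members tested and 0.01 over all genes tested.

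Because the copies are alike, their RPKM values were also added up. With CD73 siRNA the sum over the 7 metallothionein members came to 208.5, 225.7 and 132.0 RPKM in replicates 1, 2 and 3, and to 159.0, 245.9 and 108.8 RPKM in the negative control. The groups overlapped, with means of 188.7 ± 49.9 and 171.3 ± 69.4 RPKM (SD, n = 3 each). Within replicate number the log2 differences were 0.39, -0.12 and 0.28, so the summed level had no common direction. The mean log2 difference of 0.18 was 0.48 without negative control replicate 2, -0.11 without negative control replicate 3, and 0.42, 0.09 and 0.03 without CD73 siRNA replicates 3, 1 and 2. Without MT1L the sum was lower with CD73 siRNA in each replicate number (-0.12, -0.24 and -0.01). The summed RPKM gives more weight to reads of short copies such as MT1L. Not scaled for exon length or library total, the reads of the 7 numbered 2967, 3301 and 2088 with CD73 siRNA. In the negative control they numbered 2838, 3771 and 1767.

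The make-up of the sum differed more than its size. The following shares and ratios were chosen after the values were seen, and all samples are given without a test. MT2A made up 37.6%, 43.1% and 45.5% of the sum with CD73 siRNA and 61.4%, 51.0% and 58.4% in the negative control. MT1L made up 39.9%, 35.2% and 33.2% with CD73 siRNA and 14.4%, 29.6% and 18.3% in the negative control. Neither pair of ranges overlapped, whereas the share of MT1E, 19.0% to 21.2% against 18.4% to 22.7%, overlapped. These are shares of RPKM, in which the short exons of MT1L raise its part, and are not shares of reads. MT1L held 550 of 2967, 514 of 3301 and 303 of 2088 member metallothionein reads with CD73 siRNA. In the negative control it held 151 of 2838, 464 of 3771 and 123 of 1767.

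The ratio of one copy to another within a sample does not depend on the library total. MT1L to MT2A was 1.06, 0.816 and 0.73 in CD73 siRNA replicates 1, 2 and 3 and 0.235, 0.579 and 0.314 in the negative control. MT1L to MT1E was 1.88, 1.78 and 1.75 against 0.634, 1.6 and 0.833. MT1E to MT2A was 0.565, 0.459 and 0.418 against 0.37, 0.361 and 0.376. In these 3 ratios every CD73 siRNA sample lay above every control sample. They were picked from values already seen, each follows from the others, and a ratio does not tell which copy moved. Of single genes tested, 18.4% had groups without overlap, but the share for ratios of genes was not computed and may differ. MT1A to MT2A, at 0.192, 0.18 and 0.185 against 0.184, 0.163 and 0.201, overlapped. Negative control replicate 2 was the control sample nearest to the CD73 siRNA group in both ratios with MT1L.

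**Figure D3:**
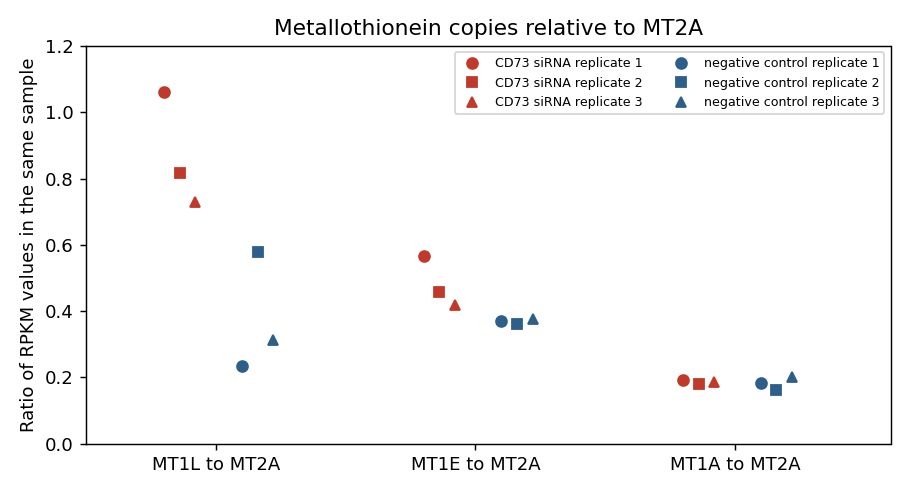
Ratio of the RPKM of MT1L, MT1E and MT1A to that of MT2A in the same sample (y axis, linear from 0) for the 6 samples, with point shape giving the replicate number. CD73 siRNA samples (red) lie at 0.73 to 1.06 for MT1L to MT2A and control samples (blue) at 0.235 to 0.579, while the ranges of MT1A to MT2A overlap.

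Of 13 other metallothionein genes and pseudogenes listed, 6 had a row, and only MT1A passed the filter. MT1A was at 15.1, 17.5 and 11.1 RPKM with CD73 siRNA and at 17.95, 20.5 and 12.8 RPKM in the negative control. It was lower in each replicate number, by log2 differences of -0.24, -0.22 and -0.19, and the groups overlapped. The difference did not pass the test (log2 fold change -0.21, SE 0.21, limma p = 0.327, adjusted p = 0.702, exact permutation p = 0.5). MT1P1, MT1P3, MT1XP1, MT1JP and MT1IP were at 0 to 0.704 RPKM in all samples.

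Zinc leaves the cytosol through the SLC30A family and enters it through the SLC39A family. SLC30A6, which pairs with SLC30A5 in a zinc transporter of the secretory pathway, was at 5.06, 9.77 and 9.35 RPKM with CD73 siRNA and at 16.4, 18.8 and 17.9 RPKM in the negative control, from 440 to 1579 reads. The groups were far apart, and the CD73 siRNA mean was 45.5% of the control mean. The means were 8.06 ± 2.61 and 17.7 ± 1.195 RPKM (SD, n = 3 each). SLC30A6 was lower with a log2 fold change of -1.09 (SE 0.21, limma p = 0.000893, adjusted p = 0.303, exact permutation p = 0.1), and it stayed past the threshold in every alternative run, with a log2 fold change of -1.24 to -0.82 when 1 sample was left out. CD73 siRNA replicate 1 had the lowest NT5E and the lowest SLC30A6. Replicate 3 of that group had more NT5E than replicate 2 but less SLC30A6.

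Of the 9 SLC30A genes listed besides SLC30A1, 5 were tested, and SLC30A6 alone passed (1 lower, 0 higher, median log2 fold change 0.03). Of all genes tested 3.13% passed, the share to set beside this count and those of the lists below. SLC30A7, a Golgi zinc transporter, had means of 3.22 ± 0.152 and 4.22 ± 0.222 RPKM (SD, n = 3 each) and groups that did not overlap, but missed the threshold (log2 fold change -0.31, limma p = 0.0189, adjusted p = 0.353, exact permutation p = 0.1). SLC30A5, the partner of SLC30A6, was at 8.36 to 10.1 RPKM against 8.25 to 9.14 RPKM and did not pass (0.03, SE 0.11).

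Of 14 SLC39A genes, 10 were tested and 1 passed, SLC39A9, which was higher (median of the list -0.05). SLC39A9, a zinc transporter of the Golgi and plasma membrane, was at 17.9, 17.4 and 16.4 RPKM with CD73 siRNA and at 12.2, 14.2 and 13.8 RPKM in the negative control. The groups did not overlap (log2 fold change 0.34, SE 0.10, limma p = 0.00969, adjusted p = 0.315, exact permutation p = 0.1). The call was lost when any 1 of the 6 samples was left out (log2 fold change 0.28 to 0.38) and when samples were rescaled to a common median (0.33). SLC39A1, SLC39A7 and SLC39A6, the most expressed importers, were at 32.8 to 66.2 RPKM, and none of them passed.

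**Figure D4:**
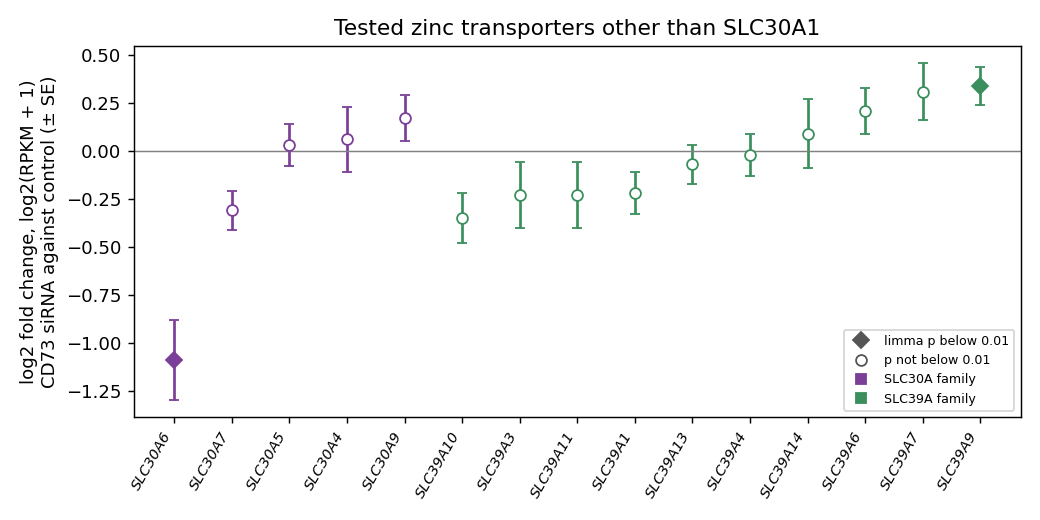
Fold change with CD73 siRNA on the log2(RPKM + 1) scale (y axis, limma estimate with SE) for the 15 tested SLC30A (purple) and SLC39A (green) genes other than SLC30A1. Filled diamonds have an unadjusted limma p below 0.01, and SLC30A6 at -1.09 and SLC39A9 at 0.34 are the 2 such genes.

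Copper, stress and steroid genes share regulators or ligands with the metallothioneins. Of 11 copper transporters and chaperones, 9 were tested and 1 was higher, CP, the copper-carrying ferroxidase ceruloplasmin (list median 0.02). CP was at 2.41, 2.05 and 3.52 RPKM with CD73 siRNA and at 1.04, 1.40 and 1.64 RPKM in the negative control, without overlap (log2 fold change 0.62, SE 0.18, limma p = 0.00892, adjusted p = 0.313, exact permutation p = 0.1). Leaving out CD73 siRNA replicate 1 (log2 fold change 0.66) or 3 (0.46) or negative control replicate 1 (0.52) or 2 (0.64) ended the call, as did dropping the filter on low values and rescaling.

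Of 12 genes induced by heavy metals and oxidative stress, 11 were tested and 0 passed at p below 0.01 by limma (list median -0.14). The smallest p were those of TXNRD1, thioredoxin reductase, and of its substrate TXN. TXNRD1 was at 52.7, 58.5 and 60.7 RPKM with CD73 siRNA and at 72.8, 63.6 and 88.1 RPKM in the negative control (log2 fold change -0.37, SE 0.13, limma p = 0.0238, adjusted p = 0.358, exact permutation p = 0.1). A replicate block took TXNRD1 past the threshold, with a lower level (limma p = 0.00797, adjusted p = 0.124, exact permutation p without the block 0.1). TXN was at 106 to 109 RPKM against 111 to 134 RPKM (log2 fold change -0.21, limma p = 0.0746, exact permutation p = 0.1). HMOX1, the heme oxygenase induced by heme and cadmium, was at 26.2, 41.2 and 37.0 RPKM against 41.3, 32.6 and 56.0 RPKM, and its groups overlapped.

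Of 10 glucocorticoid response genes, 8 were tested and 0 passed by limma (list median -0.08). The smallest p were those of KLF9, a glucocorticoid-induced transcription factor, at 1.11 to 1.56 RPKM against 1.60 to 2.41 RPKM (log2 fold change -0.38, limma p = 0.0398, exact permutation p = 0.1), and of FKBP5, a co-chaperone of the receptor. FKBP5 was at 4.82 to 5.90 RPKM against 2.13 to 5.07 RPKM (log2 fold change 0.42, limma p = 0.112, exact permutation p = 0.2). Without CD73 siRNA replicate 2, 2 of these genes, DUSP1 and ERRFI1, passed, in a run that called 309 genes in all. With all samples DUSP1 was at 25.9 to 53.5 RPKM against 42.2 to 56.5 RPKM, and its groups overlapped.

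Genes around the cluster were examined to see whether a wider part of chromosome 16 moved. Within 1000000 bp of either end, 42 annotated genes other than the members had a row and 16 were tested. The 42 include MT1A, MT1JP and MT1IP, metallothioneins inside the cluster that were also listed above, and MT1A is among the 16. POLR2C, a subunit of RNA polymerase II, was higher, at 23.6 ± 0.854 against 17.4 ± 2.56 RPKM (SD, n = 3 each, log2 fold change 0.43, SE 0.12, limma p = 0.00695, adjusted p = 0.305, exact permutation p = 0.1). POLR2C alone passed the threshold, the list median was 0.01, and the call was lost on leaving out any sample but negative control replicate 2 (log2 fold change 0.37 to 0.54). The block added BBS2, a subunit of the ciliary BBSome (log2 fold change 0.32, limma p = 0.00836 and adjusted p = 0.125 with the block, exact permutation p = 0.1 without it).

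Genes with a pattern most like the summed metallothioneins were ranked by the root mean square distance between centred log2(RPKM + 1) profiles over the 6 samples. The nearest of 12520 tested genes were ABCC3 (distance 0.0913), ENSG00000275964 (0.11), TMEM44-AS1 (0.119), RASEF (0.119) and TUFT1 (0.124), against a median distance of 0.44. A gene with the same value in all samples would lie at 0.424, so the median is near that of an unchanging gene. The 6 values of ABCC3 were 1.35, 1.76 and 0.556 RPKM with CD73 siRNA and 1.21, 1.96 and 0.312 RPKM in the negative control. As in the metallothionein sum, replicate 3 was the lowest and replicate 2 the highest sample of each group. All 5 were weakly expressed, and none remained among the 5 nearest with 0.1 added in place of 1.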

How the data were processed

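Total RNA of 6 PANC-1 samples was sequenced. The authors deposited 1 normalized value per gene and sample, without naming its unit. Multiplied by the merged exon length of GENCODE release 29, 95.5% to 95.6% of the deposited values worth under 1000 reads were whole multiples of a step per sample, within 0.05 read, so they were treated as RPKM. The steps gave library totals and reads, used to describe precision only, and 132 of 30735 genes had no length in release 29. The submitters' processing notes name bcl2fastq, Bowtie2 2.2.3, HTSeq 0.6.0 and hg38. The annotation, read length and handling of multiply matching reads were not given in the sources used here. Symbols were matched for 30384 genes.

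Groups and replicate numbers came from the sample titles. The 12527 genes that reached 1 RPKM in 3 or more samples were compared on log2(RPKM + 1), which understates the changes of low genes, with limma 3.58.1 in R 4.3.3 (trended eBayes, all 6 samples, no covariate) and Benjamini-Hochberg adjustment. Calls are at an unadjusted p below 0.01, and the scripts were tested on simulated data. Single genes also had a two-sided exact permutation test, whose smallest p is 0.1. Same-numbered samples deviated together across genes (r = 0.2, 0.48 and 0.55), so the numbers were taken to pair the samples. For different numbers r was -0.44 to -0.01. Deviations were taken from the mean of each group. A positive r for the same number therefore pushes r for different numbers down, which is no separate evidence. Values with the replicate number as a block are given where they change a call, and for MT1A. The source of the pairing is not stated in the labels.

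The members and the gene lists were chosen with earlier results of these data known. Genes named are the members, the other metallothioneins with a value above 0, from each other list those past the threshold or else the 2 with the smallest p, NT5E and the 5 nearest profiles. SLC30A5, SLC39A1, SLC39A6, SLC39A7, HMOX1, DUSP1, ERRFI1, BBS2 and SLC30A7 were named after their values were seen. Alternatives were a pseudocount of 0.1, no filter, the replicate block, each sample left out and rescaling to a common median. When a sample was left out, the sample of the same number in the other group was kept.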

Additional observations from a re-analysis of the deposited data

How the results depend on the processing

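With the replicate number as a block, 948 genes were called in place of 392 (7.57% of the genes tested in place of 3.13%). Of the 7 members tested, 2 were called in place of 1. The block gave 1 metal and oxidative stress gene in place of 0 and 2 chromosome 16 neighbours in place of 1. It changed no other call named here. Leaving out 1 sample gave 110 (without CD73 siRNA replicate 1) to 791 (without negative control replicate 2) called genes, with 181 without negative control replicate 1 and 254 without negative control replicate 3. It gave 0 to 2 called members, and 0 when any CD73 siRNA sample was left out, because MT1DP then missed the filter. The 2 were called without negative control replicate 2, the run with 791 genes called. Leaving out 1 sample gave 0 SLC39A genes in each case, 0 to 1 copper genes, 0 to 1 stress genes, 0 to 2 glucocorticoid response genes and 0 to 1 chromosome 16 neighbours. Rescaling to a common median, which moved samples by at most 0.0236 on the log2 scale, left 0 SLC39A and 0 copper genes called, and no filter left 0 copper genes, since SLC39A9 and CP sat near the threshold. The calls of NT5E and SLC30A6 held under all alternatives run, and no called value changed sign. A pseudocount of 0.1 gave log2 differences of 0.69 for MT1F, -0.60 for MT1M, -0.21 for MT1X and 3.34 for MT1DP. Depth limits MT1F, MT1M, MT1X and MT1DP, which had at most 31 reads per sample.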
